A study of Mus musculus with 3 samples.

Results

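The Ly6 and Psca family members measured here are 9 mouse genes, Ly6a, Ly6c1, Ly6d, Ly6e, Ly6g, Ly6g6c, Lypd3, Lypd8 and Psca, taken by symbol from the gene table of 31053 genes; all 9 were found and counted in cells. They were followed in single-cell RNA sequencing of pooled distal colon and anus of mice. This tissue spans the anorectal junction, at which columnar epithelium gives way to squamous epithelium. All mice were C57Bl/6, obtained when 6 weeks old. The day 0 library came from untreated mice, and the day 7 and day 42 libraries came from mice given 3% dextran sulfate sodium (DSS, an agent that injures the colon lining) in drinking water for 6 days. Each library was 1 pool of 5 mice, so no difference between days has a replicate check, and no p-value is given. The libraries held 11037, 14376 and 11667 cells on day 0, 7 and 42, with median unique molecular identifiers (UMIs, 1 per captured transcript) per cell of 5995, 6217.5 and 5708. Of all cell barcodes, 139 occurred in more than 1 library and 0 in all 3.

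Proteins of the Ly6 family carry a compact three-finger fold held by disulfide bonds, and most are tethered to the outer cell surface by a glycosylphosphatidylinositol anchor. Several are classic surface markers: Ly6a is Sca-1, a mark of stem and progenitor cells and an interferon-responsive gene, Ly6g is the antigen by which mouse neutrophils are usually stained, and Ly6c1 is found on blood vessel endothelium. In the gut, Lypd8 is a colonocyte protein that keeps flagellated bacteria away from the epithelium, and in stratified epithelia Ly6d, Lypd3 and Psca are known surface proteins of keratinocytes.

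By the GENCODE M21 annotation on GRCm38, 6 members lay in 1 cluster on chromosome 15. They were Psca (chr15:74714839-74717069), Ly6d (chr15:74762056-74763620), Ly6e (chr15:74955051-74959905), Ly6a (chr15:74994877-74998031), Ly6c1 (chr15:75044018-75048830) and Ly6g (chr15:75155240-75159126). Their span of 444 kb held 15 of the family genes looked for by symbol, members included. Lypd3 (chr7:24636550-24641118), Lypd8 (chr11:58379043-58390728) and Ly6g6c (chr17:35065388-35070050) lay elsewhere. Psca, Ly6e, Ly6g, Lypd3, Lypd8 and Ly6g6c are on the plus strand and the other members on the minus strand.

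Upstream sequence was matched in RefSeq (GRCm38.p6) for 5 of the 9 members, at 8 start sites. The 250 bases before the first listed start site are shown for the chromosome 15 neighbours Ly6g (chr15:75155011-75155260, plus strand) and Ly6c1 (chr15:75048838-75049087, minus strand) and for Lypd8 (chr11:58378782-58379031, plus strand), because these 3 genes were higher together in day 7 columnar cells. They run from 5′ to 3′ and end at the base before the start site, and capitals mark the letters TATAAA.
Ly6g: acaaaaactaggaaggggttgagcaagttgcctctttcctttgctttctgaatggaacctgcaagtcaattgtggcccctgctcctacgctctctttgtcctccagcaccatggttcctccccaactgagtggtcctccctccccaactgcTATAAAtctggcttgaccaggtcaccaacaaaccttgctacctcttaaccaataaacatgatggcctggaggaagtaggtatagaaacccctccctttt
Ly6c1: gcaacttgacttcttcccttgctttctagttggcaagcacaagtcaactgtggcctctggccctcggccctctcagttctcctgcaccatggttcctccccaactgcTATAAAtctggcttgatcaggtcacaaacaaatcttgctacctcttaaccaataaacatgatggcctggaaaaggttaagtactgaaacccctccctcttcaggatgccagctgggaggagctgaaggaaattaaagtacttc
Lypd8: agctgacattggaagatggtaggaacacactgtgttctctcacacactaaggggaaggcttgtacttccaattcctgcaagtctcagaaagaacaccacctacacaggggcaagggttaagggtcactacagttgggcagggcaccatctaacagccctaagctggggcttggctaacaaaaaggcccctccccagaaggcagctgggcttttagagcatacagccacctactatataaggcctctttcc
The Ly6g and Ly6c1 sequences shared an identical run of 37 bases, while the longest run shared by any other pair of the 5 members was 10 bases. TATAAA, searched on both strands, stood 99 bases before the Ly6g start and 143 bases before the Ly6c1 start, and it was absent from the Lypd8 window. Among 32817 upstream windows of the same length, 12.4% held these letters. The interferon-stimulated response element occurred in 2.97% of all windows, the gamma-activated site TTCNNNGAA in 7.01%, the AP-1 site TGANTCA in 6.75% and the HNF4 letters CAAAGTCCA in 0.384%. None of these 4 had a match at any of the 8 start sites of the members, which says only that those letters are not in these windows.

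Levels are UMIs of a gene per 1000000 UMIs (CPM), from UMIs summed over all cells of a class or of 1 of the authors' clusters in a library. Brackets hold exact Poisson 95% intervals, which cover counting error only. The columnar class joins the authors' colonocytes, secretory colonocytes and enteroendocrine cells (4306, 1062 and 1680 cells on day 0, 7 and 42), and the squamous class is their keratinocytes (3316, 9035 and 7970). Marker lists were highest in their own class in 37 of 39 checks; the exceptions were the endothelial list on day 7 and day 42, which was highest in lymphatic cells.

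Members differed in the cell types in which their level was highest. Lypd8 and Ly6g were highest in colonocytes on all 3 days, and Ly6d, Lypd3 and Ly6g6c were highest in keratinocytes. Ly6c1 was highest in endothelial cells on every day, with fibroblasts next. Ly6e was at or above 100 CPM in 17 of 21, 18 of 20 and 17 of 19 clusters of at least 50 cells on day 0, 7 and 42. Ly6d also passed 100 CPM in 16, 19 and 19 of them. Ly6g reached it in 1, 4 and 1 clusters.

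**Figure D1:**
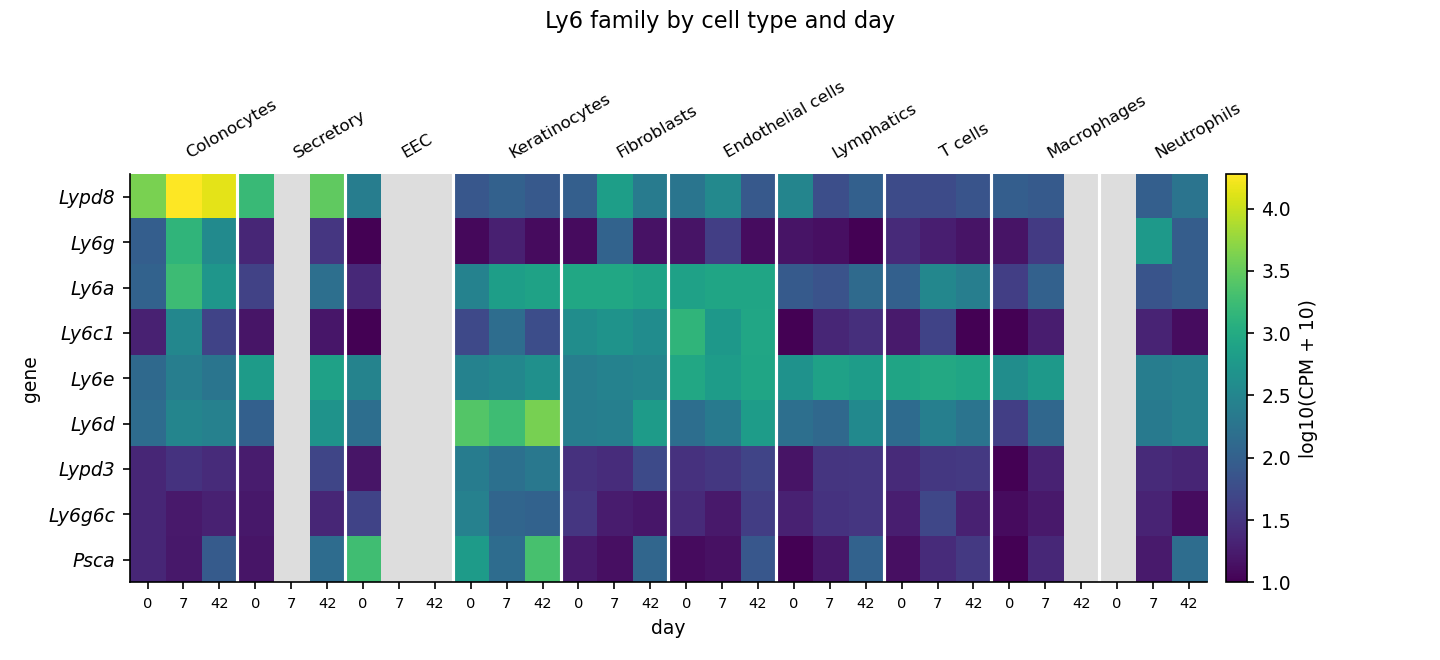
Level of each family member in 10 of the authors' cell types on day 0, 7 and 42, as log10(CPM + 10) on a colour scale; grey marks a type with under 50 cells that day. Lypd8 and Ly6g are brightest in colonocytes, Ly6d in keratinocytes, and Ly6e is spread over most types.

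In columnar epithelium, Ly6a, Ly6c1, Ly6g and Lypd8 were far more abundant on day 7 than on day 0. Higher and lower here mean a log2 ratio of at least 1 in size after adding 10 CPM to each level, and a gene entered with at least 10 CPM in either library. Of the 9 members 5 were higher (Ly6a, Ly6c1, Ly6g, Lypd8 and Ly6d) and 1 lower (Psca), where 4.02% of all 8486 genes entered were higher and 2.43% lower. The members' median log2 ratio was 1.13, against -0.14 for all genes. On day 42, 6 of 9 were higher, the same 5 and Psca, and 0 lower, where 1.39% of 8317 genes were higher and 0.433% lower. The medians were 1.07 for the members and -0.03 for all genes. Only 4 members were higher on day 42 with the filter on cells, without the highest doublet scores, or with totals that left out mitochondrial and ribosomal protein genes. The mix of columnar cells also differed: cluster 2 held 1936 of 4306 columnar cells on day 0, 703 of 1062 on day 7 and 1072 of 1680 on day 42, so values within cluster 2 stand beside those of the class. Cells with over 20% mitochondrial UMIs were 32.1%, 14.9% and 12.97% of the libraries. With those and other low-quality cells left out, the day 7 log2 ratios were as large, at 4.28 for Ly6a, 4.58 for Ly6g and 2.58 for Lypd8.

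Lypd8, the antibacterial surface protein, was the most abundant member in columnar cells. Its columnar level was 3865 CPM on day 0 (3847–3884), 18334 on day 7 (18245–18423) and 12421 on day 42 (12356–12487). The log2 ratio to day 0 was 2.24 on day 7 and 1.68 on day 42, so both later libraries lay above the untreated one. In cluster 2, which the authors named colonocytes, Lypd8 had 9332, 21795 and 23885 CPM, the highest value being that of day 42. In cluster 7, which held 1809, 33 and 412 cells, it had 1659, 6714 and 2585 CPM. Secretory colonocytes held 1624 CPM on day 0 and 3004 on day 42. Keratinocytes held 68.3, 93.1 and 72.5 CPM, and T cells held 45.2, 45.2 and 60.2, all far below the columnar level. Fibroblasts stood above these on day 7, with 684 CPM of Lypd8.

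Ly6a (Sca-1) had a columnar level of 90.7 CPM on day 0 (87.9–93.5), 1702 on day 7 (1675–1729) and 468 on day 42 (455–481). It was 18.8-fold higher on day 7 and 5.16-fold higher on day 42 than on day 0, and ranked 6 from the top of 8486 genes by the day 7 log2 ratio of 4.09. Colonocytes went from below fibroblasts on day 0 to the highest class on day 7, at 1754 CPM against 889 in fibroblasts and 835 in endothelial cells. Within cluster 2 the levels were 197, 1879 and 824 CPM, a 9.55-fold difference between day 7 and day 0. Cluster 7 had 49.6, 978 and 169 CPM. Neutrophils held 60.7 CPM of Ly6a on day 7 and macrophages 92.7, below the columnar level of that day.

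Ly6c1 followed the same order of days at lower levels. Columnar cells had 9.41 CPM on day 0 (8.52–10.4), 313 on day 7 (301–325) and 32.3 on day 42 (29.1–35.8). The log2 ratio was 4.06 on day 7 and 1.12 on day 42. Cluster 2 held 15.1, 353 and 56.5 CPM. The summed list of 5 endothelial markers, for the cell type with the highest Ly6c1 level, was at 3.08, 14.8 and 3.76 CPM in columnar cells. In endothelial cells on day 7 it was at 2997 CPM, and Ly6c1 itself at 552 CPM. Of all day 7 Ly6c1 UMIs, keratinocytes held 77.6% and endothelial cells 5.91%, and fibroblasts had a level of 477 CPM. Keratinocyte and fibroblast lists were not set beside columnar Ly6c1, and free RNA was not tested. The related monocyte gene Ly6c2 had 4.27 CPM in day 7 columnar cells. Of the 90-base windows in the last 500 bases of Ly6c1 transcripts, 9.87% also occurred in another of the 38 family genes compared, mostly Ly6c2. The other 8 members shared 0 with these genes.

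Ly6e, an interferon-responsive gene best known for limiting virus entry, was within the threshold for the class at 164, 248 and 239 CPM. Its level depended on the cluster. In cluster 2 it was 41.4 CPM on day 0, 218 on day 7 and 116 on day 42, a log2 ratio of 2.15 on day 7. In cluster 7 it was 159, 310 and 247 CPM. Secretory colonocytes, the columnar cells with most Ly6e, held 621, 484 and 738 CPM, the day 7 value resting on 35 cells.

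Ly6d in columnar cells had 131, 298 and 285 CPM, levels of the same order as in neutrophils (216 CPM on day 7 and 265 on day 42) and T cells (128, 247 and 171), so expression and free RNA cannot be told apart there. Its day 7 log2 ratio of 1.13 was 0.81 without cluster 22 and 0.94 without the 10 richest cells, and then only 4 members counted as higher. Within cluster 2 Ly6d had 94.9, 235 and 256 CPM, log2 ratios of 1.22 on day 7 and 1.34 on day 42. Cluster 22 was small (279 cells on day 7, 4 and 5 on the other days) and had 940 CPM of Ly6d. In that cluster the keratinocyte marker list summed to 8476 CPM and the neutrophil list to 12544 CPM on day 7, and their part in its Ly6d level was not tested. Psca had 35.2, 6.06 and 82.1 CPM. At day 0, 10 cells held 93.1% of the columnar Psca UMIs, and 1 enteroendocrine cell held 1038 of the 1543; on day 42 the level was below that of fibroblasts (111 CPM) and neutrophils (140). Without the 10 richest cells Psca no longer counted as lower on day 7, and without the 5% of cells with the highest doublet score its day 42 log2 ratio was -0.29. Lypd3 stayed between 12.1 and 20.4 CPM and Ly6g6c between 6.73 and 12.5 CPM.

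**Figure D2:**
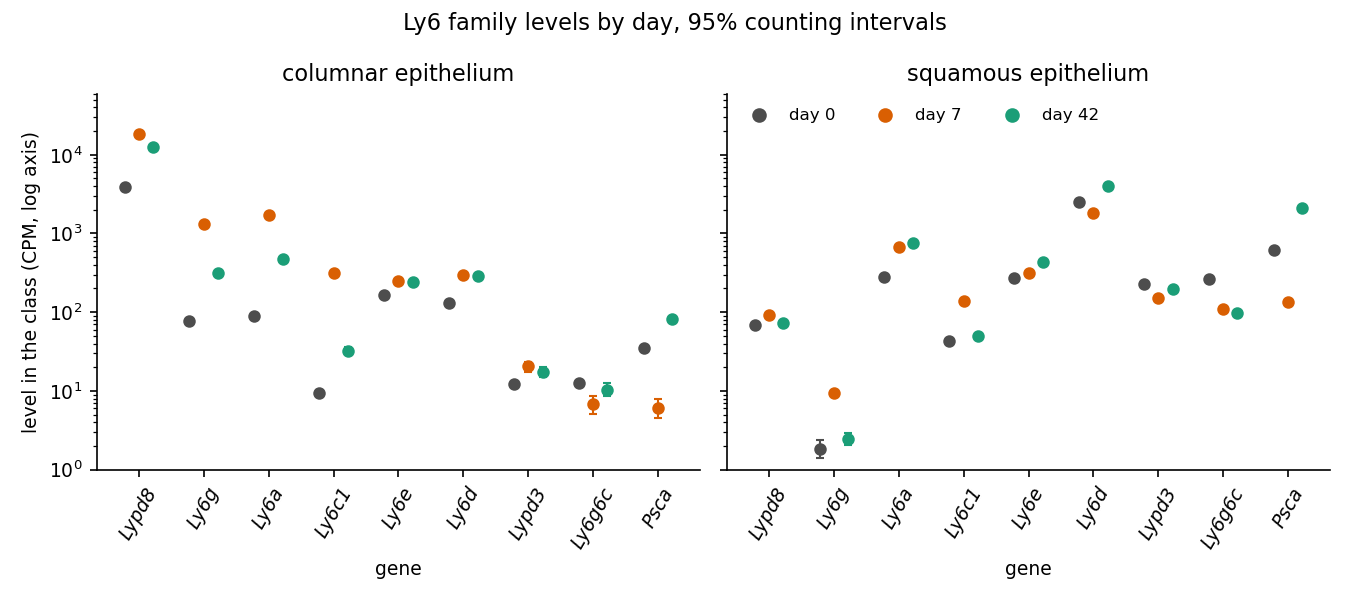
Level in CPM on a log axis of the 9 members in the columnar (left) and squamous (right) epithelium on day 0, 7 and 42; points are 1 library each and bars are exact Poisson 95% intervals, often smaller than the point. Ly6g, Ly6a and Ly6c1 stand highest on day 7 on the left, and Ly6d and Psca stand highest on day 42 on the right.

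Ly6g, the neutrophil antigen, was more abundant in colonocytes than in neutrophils on both later days, when neutrophils could be measured. In colonocytes it had 84.1 CPM on day 0 (81.3–87.04), 1361 on day 7 (1337–1386) and 355 on day 42 (344–367). Neutrophils had 578 CPM on day 7 (555–602) and 83.4 on day 42 (55.4–121). At day 0 there were 5 neutrophils with 0 Ly6g UMIs among 4441, which allows up to 676 CPM. Of all Ly6g UMIs, the columnar class held 96.8% on day 0, 74.6% on day 7 and 95.04% on day 42, and neutrophils held 15.5% on day 7.

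Within the columnar class Ly6g was mainly a cluster 2 transcript. Cluster 2 had 253 CPM on day 0 (244–262), 1586 on day 7 (1556–1616) and 663 on day 42 (641–686), and the log2 ratio to day 0 was 2.60 on day 7 and 1.36 on day 42. Cluster 7 had 4.77, 498 and 23.5 CPM, but on day 7 its 10 richest of 33 cells held 88.5% of the UMIs. Secretory colonocytes had 12.5 CPM on day 0 and 22.7 on day 42. A Ly6g UMI was found in 49.7% of cluster 2 cells on day 0 (Clopper-Pearson 95% interval 47.5 to 51.99), 82.8% on day 7 (79.8–85.5) and 64.1% on day 42 (61.1–66.96). With each cell thinned to 1000 UMIs these shares were 21.6%, 59.2% and 44.0%, leaving out 36, 15 and 113 shallower cells. In keratinocytes, set beside it as another epithelium, the thinned shares were 0.213%, 1.79% and 0.279%, leaving out 34, 468 and 91 cells, and in fibroblasts they were 0.0763%, 3.89% and 0.493%, leaving out 125, 33 and 19. Median UMIs per cell were 4419.5, 7194 and 3712 in cluster 2, 9168, 11481 and 6542 in keratinocytes and 4366, 5015 and 2645.5 in fibroblasts. The cluster 2 share was the higher one on all 3 days, and free RNA itself was not estimated.

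Neutrophil genes did not accompany Ly6g in these cells on day 0. In day 0 columnar cells Csf3r, Mmp8 and Mmp9 had 0 UMIs of 43888325, which allows up to 0.0684 CPM each, and Cxcr2, Retnlg, S100a8 and S100a9 had 1, 4, 12 and 19 UMIs beside 3393 of Ly6g. At day 7 the 7 neutrophil markers summed to 2243 CPM in columnar cells and 249459 CPM in neutrophils. Per UMI of Csf3r, the neutrophil growth factor receptor, there were 0.771 Ly6g UMIs in day 7 neutrophils and 269.9 in day 7 cluster 2. Per UMI of S100a8 the values were 0.00646 and 3.01. Leaving out the cells with a UMI of Csf3r, Cxcr2, Mmp8 or Mmp9 (0, 29 and 15 cells) left the cluster 2 share at 49.7%, 82.3% and 63.95%, and the level at 253, 1579 and 661 CPM. These genes are rare there: on day 7 S100a9 was found in 48.8%, S100a8 in 38.8% and Retnlg in 13.7% of cluster 2 cells, against at most 2.84% for each of the 4. Leaving out cells with a UMI of any of the 7 markers (15, 480 and 96 cells) gave Ly6g shares of 49.8%, 78.03% and 64.5% and levels of 254, 1709 and 692 CPM. On day 7 this kept 223 of 703 cells, with a median of 3104 UMIs, and their thinned share was 60.6%. Cluster 22 stood apart, with 519 CPM of Ly6g and 0.119 Ly6g UMIs per S100a8 UMI.

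**Figure D3:**
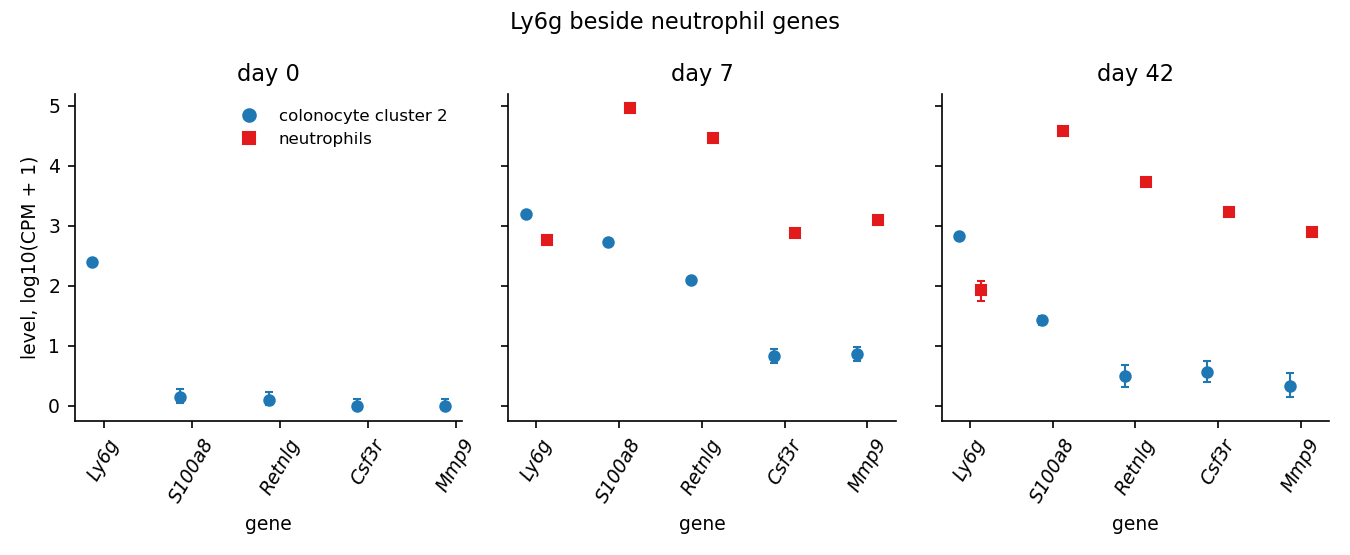
Ly6g and 4 neutrophil genes in colonocyte cluster 2 (circles) and in neutrophils (squares), as log10(CPM + 1), on day 0, 7 and 42 with exact Poisson 95% intervals; the 5 neutrophils of day 0 are not drawn. Cluster 2 lies above neutrophils for Ly6g on day 7 and 42 and below them for S100a8, Retnlg, Csf3r and Mmp9.

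Members overlapped in the same colonocytes. In thinned cluster 2 cells on day 7, Ly6a was detected in 74.2% of the 407 cells with Ly6g (69.7–78.4) and in 46.6% of those without. The shares were 24.6% and 12.8% on day 0 and 62.6% and 36.5% on day 42. Ly6c1 was detected in 29.5% of day 7 cells with Ly6g and 8.54% of those without. Cells of 1 library are not replicates, so these shares describe the 3 libraries.

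In squamous epithelium Ly6a and Ly6c1 were again higher on day 7, while Psca and Ly6g6c were lower. Of the 8 members that entered 2 were higher and 2 lower, where 1.38% of all 8378 genes were higher and 1.17% lower. At day 42 Ly6a and Psca were higher and Ly6g6c lower, where 2.79% of 8401 genes were higher and 2.39% lower. The members' median log2 ratio was -0.13 on day 7 and 0.40 on day 42, against -0.01 and -0.03 for all genes. Ly6g did not enter, at 1.85, 9.50 and 2.46 CPM. Lypd8 was at 68.3 to 93.1 CPM in the class. It was uneven between clusters, with 19.03, 836 and 76.6 CPM in cluster 12 and 247, 201 and 103 CPM in cluster 5. The colonocyte marker list summed to 983, 958 and 2102 CPM in cluster 12, and its part in the Lypd8 level was not tested.

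Ly6d, the most abundant squamous member, had 2523 CPM on day 0 (2507–2540), 1801 on day 7 (1794–1808) and 3957 on day 42 (3941–3973). The log2 ratio to day 0 was -0.48 and 0.65, both within the threshold. Of 9 keratinocyte clusters with at least 50 cells on each day, 0 passed the threshold on day 7 and their median log2 ratio was -0.09, with cluster 12 (-0.84) and cluster 9 (-0.66) below the class value. Cluster 4 had 4258, 4328 and 4260 CPM, nearly the same on all 3 days, and cluster 8 had 2953, 3100 and 2785. At day 42 clusters 1 and 3 were higher (cluster 1 at 470, 426 and 2158 CPM and cluster 3 at 1063, 1224 and 2380), and cluster 17 was lower. Ly6d was also higher on day 42 in fibroblasts, at 619 CPM against 236 on day 0, while T cells had 171 against 128 CPM. Both lay below clusters 1 and 3, and whether these counts are free RNA was not tested. Detection of Ly6d in thinned keratinocytes was 66.1%, 58.7% and 77.8%.

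Psca was concentrated in keratinocyte cluster 5, with 15015 CPM on day 0 (14808–15224), 3804 on day 7 (3740–3870) and 6452 on day 42 (6415–6488). The untreated library was the highest within this cluster, but its 10 richest cells held 64.9% of the UMIs, against 46.4% on day 7 and 9.56% on day 42. The keratinocyte marker list summed to 12531, 25596 and 26480 CPM in cluster 5, and the colonocyte list to 4968, 2256 and 3852. For the class as a whole the order differed: 621 CPM on day 0, 134 on day 7 and 2113 on day 42, a log2 ratio of -2.13 on day 7 and 1.75 on day 42. Without the 10 richest cells the day 7 ratio was -1.36. Cluster 5 had 87 cells on day 0, 162 on day 7 and 2153 on day 42. With equal weight to the clusters the day 42 log2 ratio of the class turned to -0.71. Within clusters, 7 of 9 were higher on day 42 and 1 was lower, cluster 5 (-1.22), with a median log2 ratio of 1.61. On day 7, 1 of 9 was higher and 2 were lower. A single day 0 cell held 4141 of the 21095 squamous Psca UMIs. Psca was detected in 69.8%, 50.6% and 48.3% of thinned cluster 5 cells. Cluster 12 held 1408, 209 and 3193 CPM, its day 0 value coming from 51 cells of which 10 held 97.3% of the UMIs. In the other 7 clusters Psca on day 42 lay between 20.4 and 92.0 CPM, below the 140 CPM seen in neutrophils of that library.

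Ly6g6c, a family gene of the major histocompatibility region, had 263 CPM on day 0 (257–268), 108 on day 7 (106–110) and 97.1 on day 42 (94.6–99.7), with log2 ratios to day 0 of -1.21 and -1.35. Within clusters, 2 of 9 were lower on day 7 (5 and 12) and 4 of 9 on day 42 (5, 12, 13 and 17). Clusters 4 and 8 held most of the UMIs on day 0, with 4565 and 2703 of 8939, against 978 in cluster 5 and 130 in cluster 12. Cluster 5 had 731, 92.3 and 169 CPM and cluster 12 had 825, 47.5 and 259 CPM. Cluster 8 had 439, 577 and 419 CPM and cluster 4 had 472, 252 and 354, neither past the threshold. With each cell thinned to 1000 UMIs the class ratio on day 7 was -0.75, short of the threshold. Lypd3 (C4.4A, a surface protein of suprabasal keratinocytes) had 229, 152 and 195 CPM and was highest in clusters 4 and 5, at 460, 395 and 418 CPM in cluster 4 and 505, 332 and 324 in cluster 5.

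Ly6a in keratinocytes had 276 CPM on day 0 (271–282), 680 on day 7 (676–685) and 760 on day 42 (753–767). Unlike columnar Ly6a, which was 3.64-fold lower on day 42 than on day 7, squamous Ly6a was no lower on day 42 in the class sum; this contrast was not tested. Between these days 4 of 9 keratinocyte clusters were below 0 in log2 ratio (cluster 3 at 1008 and 634 CPM), and with equal cluster weights the ratio was -0.15. Within clusters it passed the threshold on day 7 in 5 of 9 and on day 42 in 4 of 9. Cluster 5 had 361, 1395 and 1134 CPM, cluster 13 had 15.2, 69.1 and 139, and cluster 9 had 493, 559 and 533. Ly6c1 had 43.4, 139 and 49.7 CPM, so the class level on day 42 was near that of day 0. All 9 clusters were above 0 in log2 ratio of Ly6c1 on day 7, and 4 passed the threshold. On day 42, 8 of 9 were above 0 and 2 passed it, cluster 5 (2.24 CPM on day 0 and 29.4 on day 42) and cluster 12 (12.7 and 67.0). Both day 0 levels rested on UMI counts no higher than the limit of 3 counts, so these calls are uncertain. The same day 0 levels stand behind the day 7 ratios of these clusters. Cluster 5 cells with Psca held Ly6a in a larger share than those without on day 7 (73.2% and 45.0%) and day 42 (65.7% and 49.3%). At day 0, with 60 and 26 cells, the intervals overlapped widely (14.7 to 37.9% and 14.3 to 51.8%).

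**Figure D4:**
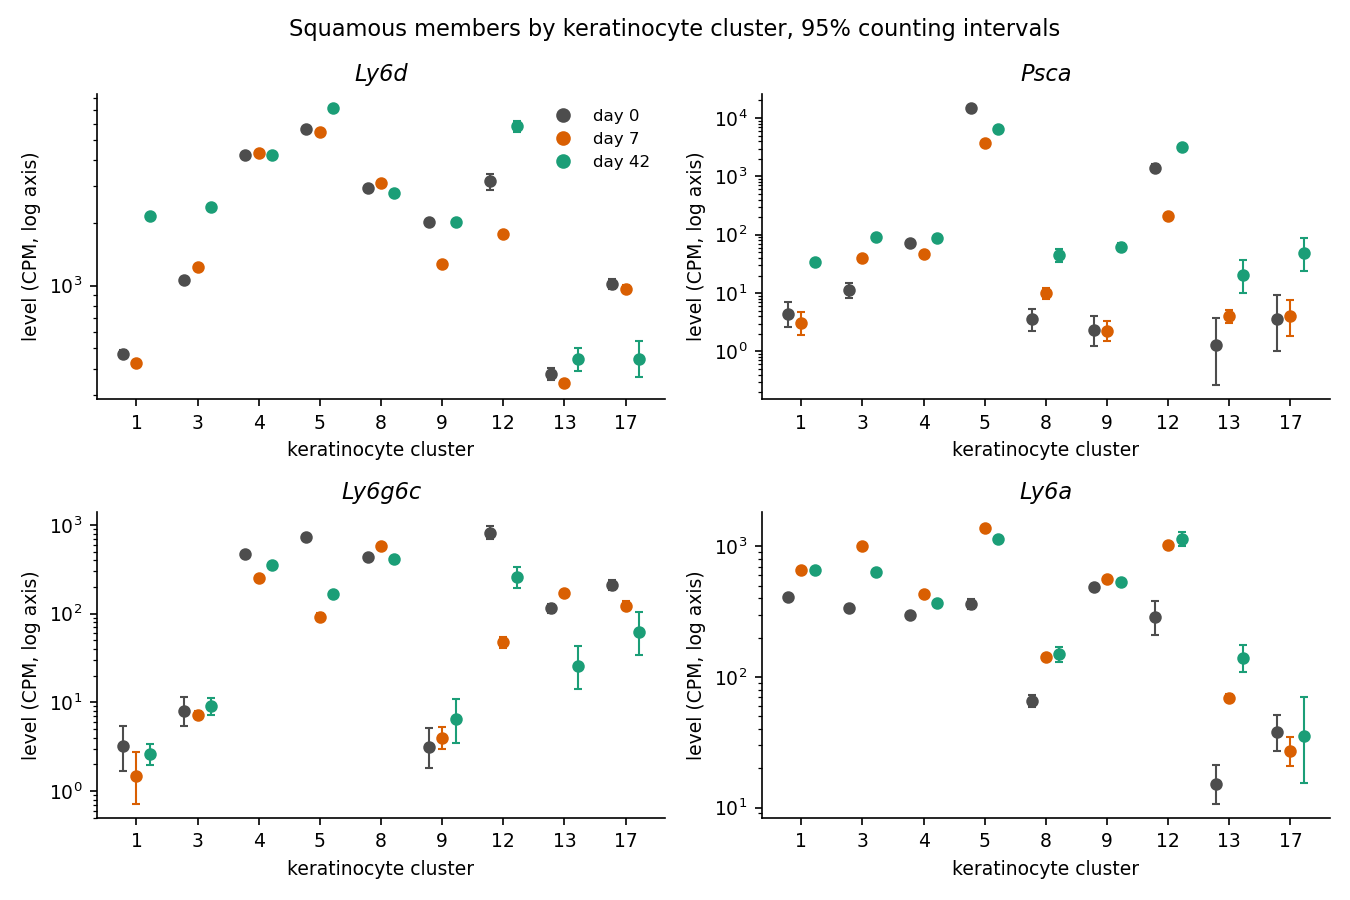
Level in CPM on a log axis of Ly6d, Psca, Ly6g6c and Ly6a in the 9 keratinocyte clusters with at least 50 cells on each day; points are 1 library each and bars are exact Poisson 95% intervals. Ly6d in cluster 4 lies at 4258 to 4328 CPM on all 3 days, and Psca in cluster 5 is highest on day 0, when 10 cells held 64.9% of its UMIs.

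In stromal and immune cells the differences depended on the member and the cell type. Ly6a was higher than on day 0 in T cells, at 90.5, 317 and 241 CPM, and in macrophages on day 7, at 92.7 against 30.5 CPM. In macrophages Ly6d was higher as well, at 115 against 30.5 CPM, and Ly6g, at 26.4 against 5.08, from 12 and 2 UMIs on day 0. Lypd3 and Psca also counted as higher there, with 14 and 17 UMIs on day 7 and 0 on day 0. The neutrophil gene S100a8 had 2 UMIs in macrophages on day 0 and 2718 on day 7. Whether these macrophage counts are free RNA was not tested. Ly6a in fibroblasts was 884 CPM on day 0 (861–907), 889 on day 7 (846–933) and 757 on day 42 (694–825), and in endothelial cells it was 745, 835 and 830 CPM, with overlapping intervals. Ly6c1 in endothelial cells was 1366 CPM on day 0 (1257–1483), 552 on day 7 (523–582) and 854 on day 42 (763–953). The log2 ratio on day 7 was -1.29, opposite in sign to that of epithelial cells. Lymphatic cells, the other vessel type, had 0 Ly6c1 UMIs on day 0, which allows up to 14.7 CPM, and 12.7 and 17.3 CPM on the later days, from 10 and 3 UMIs, so no difference was detectable at this depth. Fibroblast Ly6c1 was 393, 477 and 385 CPM. Members abundant in epithelium also differed in stromal cells. Fibroblasts had 2.29, 101 and 4.38 CPM of Ly6g, with 85.9% of the day 7 UMIs in 10 cells. Endothelial cells had 145 CPM of Ly6d on day 0 and 645 on day 42. Psca was higher on day 42 than on day 0 in fibroblasts (111 against 7.50 CPM) and endothelial cells (67.1 against 2.37). The same held in lymphatic cells (97.9 against 0) and T cells (25.1 against 3.62). Neutrophils had 7.38 CPM of Psca on day 7 and 140 on day 42. In endothelial, lymphatic and T cells the day 0 Psca values came from 1, 0 and 2 UMIs. Whether these counts are free RNA, doublets or expression was not tested. Ly6e was highest in T cells on day 7 (935 CPM, 833 to 1045) and in endothelial cells on day 0 (899 CPM), where its interval overlapped that of T cells (811 CPM). In macrophages Ly6e was 391 CPM on day 0 and 574 on day 7, and in lymphatic cells 460, 738 and 639.

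Of 36 further genes of the Ly6/uPAR superfamily looked for by symbol, 29 were in the gene table under that symbol. Of these, 14 reached 10 CPM in a class of at least 50 cells. Family genes listed under another symbol were not looked for. Plaur, the urokinase receptor, was highest in neutrophils on day 7 (559 CPM), and in keratinocytes it had 4.12, 21.9 and 38.9 CPM. Slurp1, a secreted keratinocyte protein, had 46.9, 20.8 and 212 CPM in keratinocytes. Lypd2 had 14.6, 6.17 and 44.9. Slurp1 and Lypd2 are the family genes that follow Psca on chromosome 15, and in the class sum both had the order of days that Psca had. Slurp2, the family gene after them, did not, at 9.32, 9.46 and 5.35 CPM. It lies under 10 CPM and was named after its values were seen. Lynx1 and the member Ly6d, which follow Slurp2, again had the order of Psca. Lynx1 was lowest on day 7 (5.18 CPM) and highest on day 42 (13.97 CPM). Ly6d had 2523, 1801 and 3957 CPM. The share of all genes with this order was not counted. The order was not examined within clusters for Slurp1, Lypd2, Slurp2 and Lynx1. Pinlyp had 70.6, 35.1 and 65.1 CPM there and Ly6g6e 38.3, 17.7 and 25.8. Gpihbp1, the capillary anchor of lipoprotein lipase, was an endothelial transcript at 370, 67.3 and 34.9 CPM, with 70.5% of its 156 day 0 UMIs in 10 cells. Ly6c2 was highest in macrophages on day 42 (304 CPM, from 44 cells) and among classes of at least 50 cells in day 7 neutrophils (248 CPM), and Ly6i reached 21.1 CPM in day 7 macrophages. Cd59a, Ly6g5b, Ly6g6d, Lynx1, Lypd6 and Lypd6b peaked between 14.3 and 66.9 CPM. In squamous cells 1 of 7 that entered was higher on day 7 (Plaur) and 3 of 8 on day 42 (Slurp1, Lypd2 and Plaur), with 0 lower, where 1.38% and 2.79% of all genes were higher.

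Interferon-responsive genes were set beside the members because Ly6a and Ly6e belong to that response. In columnar cells 5 of the 11 that entered were higher on day 7 (Irf7, Isg15, Ifit1, Gbp2 and Psmb8) with a median log2 ratio of 0.86, where 4.02% of all genes were higher and their median was -0.14. On day 42, 4 of 10 were higher, where 1.39% of all genes were. Gbp2, a guanylate-binding protein, had 5.15 CPM on day 0, 125 on day 7 and 29.3 on day 42, and Isg15 had 2.53, 64.9 and 16.02, the order of days seen for Ly6a and Ly6c1. In squamous cells 0 of 7 were higher on day 7, with a median of -0.60, while Ly6a and Ly6c1 were higher. On day 42, 1 of 9 was higher (Gbp2, log2 ratio 1.48) and the median was 0.24, against -0.03 for all genes. Of the epithelial repair genes that entered in columnar cells, 3 of 7 were higher (Anxa1, Anxa8 and S100a6) and 1 lower (Cyr61) on day 7, and 2 of 8 were higher and 1 lower on day 42. Of all genes 4.02% were higher and 2.43% lower in columnar cells on day 7, and 1.39% and 0.433% on day 42. In squamous cells 3 of 10 were higher on day 7 and 7 of 10 on day 42, with 0 lower, where 1.38% and 2.79% of all genes were higher.

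Across 60 combinations of cluster and day with at least 50 cells, the genes whose level most resembled each member were ranked by Pearson's r over 5354 genes with at least 100 CPM somewhere. Clusters of 1 library share depth and free RNA, so r is a description. Ly6c1 was closest to Ly6a (r 0.81), and Akr1b8 followed. Among the other members Lypd3 was closest to Ly6d (0.90), and Pinlyp was closest to Lypd3 (0.92). Lypd8 went with the membrane mucin Muc3 (0.96) and with Dmbt1 (0.95), and Psca with Ltf, which encodes lactoferrin (0.95). For Ly6g the closest were 2010109I03Rik (0.83), Trim15 (0.83), Clca4b (0.82), Saa1 (0.80) and Dmbt1 (0.80), and for Ly6g6c Calml3 (0.91) and Sbsn (0.86). Apobec3, an antiviral deaminase, was closest to Ly6e (0.85). Of the 5 genes nearest each member between 1 and 4 were also among its 5 nearest by Spearman's rho, Ly6e having 1 and Lypd8 having 4.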

How the data were processed

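The authors deposited whole-number counts per gene and cell for 31053 genes and 37080 cells, with no normalization, beside a table giving every cell its day, a cluster (29 in all) and a cell type (14 in all). Cell Ranger 3.0.2 and mm10 are named per the submitters' processing notes; the filter on cells and the method of cell typing are not given in the sources used here, and whether the authors removed doublets is not stated. Per the labels' protocols, tissue was digested with trypsin, depleted of dead cells and made into 10x 3' libraries, so a count is a UMI. The deposited size factor is a ratio: each cell's total divided by it gave 5283.4294, the geometric mean of all totals, which shows that the cell table follows the matrix order.

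Counts were summed per class or cluster and day and divided by their total to give CPM. Days were compared as log2((CPM + 10)/(CPM + 10)) in classes of at least 50 cells, with a threshold of 1, in Python 3.11.15 with numpy 2.4.6, pandas 2.3.3 and scipy 1.17.1. The ratio step was tested on simulated data. With 1 library per day there was no test, and intervals cover counting error only. A count of 0 was given the limit of 3 counts. All 9 members are named by rule; other family genes are named at 10 CPM, except Slurp2. The members and lists were chosen with earlier results of these data known. Alternatives were a stricter cell filter (1000 UMIs, 500 genes, 20% mitochondrial UMIs), leaving out the top 5% of Scrublet doublet scores (scanpy 1.11.5), size factors, other totals, the mean per cell, thinning, a pseudocount of 1, removal of the 10 richest cells, equal cluster weights, removal of cluster 12 or 22 and a threshold of 1.5-fold. The Ly6g shares without cells holding a UMI of 4 or of all 7 neutrophil markers and the ratios within squamous clusters were added after seeing the data.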

Additional observations from a re-analysis of the deposited data

Results flagged for a closer look

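The log2 ratios of Ly6d and Ly6a had opposite signs in the 2 epithelia; the squamous ones did not pass the threshold, and with 1 library per day the differences were not tested. For Ly6d at day 7 against day 0 the squamous log2 ratio was -0.48 and the columnar one 1.13, so the difference was -1.61. The columnar level was of the order seen in neutrophils and T cells, and its ratio was 0.81 without cluster 22. For Ly6a at day 42 against day 7 the squamous log2 ratio was 0.16 and the columnar one -1.84, so the difference was 2.00; with equal weight to the clusters the squamous value was -0.15.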

How the results depend on the processing

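In squamous cells the log2 ratio of Ly6d at day 42 against day 0 (0.65) was 0.61 with the filter on cells, 0.84 with size factors, 0.53 without mitochondrial and ribosomal genes, 0.67 as the mean per cell, 0.67 without the 10 richest cells and 0.38 with equal cluster weights. That of Psca (1.75) was 1.69, 1.94, 1.64, 2.34, 2.96 and -0.71 in the same order, and 2.37 with thinning. The equal weights reversed it, while within clusters 7 of 9 were higher and 1 lower. In columnar cells at day 7 against day 0, Ly6a (4.09) was 4.28 with the filter, 4.29 with size factors, 3.97 without mitochondrial and ribosomal genes, 3.75 as the mean per cell, 3.75 with thinning and 3.19 with equal weights, which here rest on cluster 2 alone. Ly6g (3.92) was 4.58, 4.13, 3.81, 3.08, 3.11 and 2.60, and Lypd8 (2.24) was 2.58, 2.45, 2.08, 1.78, 1.77 and 1.22 in that order. Without the highest doublet scores Ly6a was 4.26 and Lypd8 2.19, with a pseudocount of 1 CPM Ly6a was 4.22 and Ly6g 4.07, and without cluster 22 Ly6g was 4.004 and Lypd8 2.31. Psca in columnar cells at day 42 (1.03) was -0.29 without the highest doublet scores. Members lower in squamous cells at day 7 went from 2 to 1 as the mean per cell and with thinning, where Ly6g6c dropped out. Members higher there at day 42 went from 2 to 1 with equal weights and to 4 at 1.5-fold. Members higher in columnar cells at day 42 went from 6 to 4 with the filter, without the highest doublet scores and without mitochondrial and ribosomal genes. Members lower in columnar cells at day 7 went from 1 to 0 as the mean per cell, with thinning, without the 10 richest cells and with equal weights. The cause of these shifts was not tested. Equal weights moved the 54 ratios most, by a median of 0.31 with 6 signs turned. Thinning turned 5 signs, leaving out the highest doublet scores 3 and size factors 0. No paired analysis was possible because there was 1 library per day. Depth limits the smallest counts, such as the 5 Ly6g UMIs in cluster 17 on day 7.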
